A study of Mus musculus with 12 samples.

Results

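Chemokine and sphingosine-1-phosphate (S1P) receptors steer lymphocytes between marrow, blood and tissue. The genes described here were Cxcr3, Cxcr4, Cxcr6, Cx3cr1, Ccr2, Ccr6, Ccr7, S1pr1 and S1pr5. They were chosen by symbol, each through the probe set that the platform annotation pairs with that symbol alone. All 9 had 1 such probe set and were among the 19938 genes tested, without a filter on dim signals.

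The RNA came from mouse natural killer (NK) cells of 2 established lines named KY-1 and KY-2. Each is deficient in p53 (p53KO) and was grown in human IL-15 at 200 U/mL. Cells were transduced with a vector for GFP linked through P2A to FLAG-tagged Myb (the Myb groups), or with a vector for GFP (the GFP groups), and were sorted as GFP-positive. The KY-1 Myb group had 4 arrays, the KY-1 GFP group 3, the KY-2 Myb group 3 and the KY-2 GFP group 2. The labels do not give the promoter of the vectors, the clonal state of the lines or the time after transduction.

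Typical chemokine receptors and S1P receptors are membrane proteins that couple mainly to inhibitory G proteins. They direct cells towards their ligand and are switched off by receptor kinases and arrestins. In NK cells CXCR4 holds cells in the bone marrow through CXCL12, S1PR5 serves the exit from marrow and lymph node, and CXCR3, CXCR6, CX3CR1 and CCR2 guide entry into tissues. The factor Myb keeps blood progenitors immature, and the series compares cells given extra Myb within a study of microRNA-15/16 and NK cell maturation.

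As Myb binds DNA, the 250 bases before the start of each gene were read from the RefSeq promoter table (GRCm38.p6), which held 7 of the 9 genes and not S1pr1 or Ccr7. The hexamers CAACGG and CAACTG and, with T first, TAACGG and TAACTG, which spell the Myb consensus, were searched on both strands. The 3 genes called with the Myb vector in the tests described further on are shown first, then the 2 genes with a match. Capitals mark a match. Cxcr4 lies on the minus strand at chr1:128592300-128592549, Cxcr6 on the plus strand at chr9:123806227-123806476 and Cxcr3 on the minus strand at chrX:101734148-101734397. Cx3cr1 lies on the minus strand at chr9:120068297-120068546, and the first of the listed Ccr6 starts on the plus strand at chr17:8235793-8236042. Each line reads 5′ to 3′ on the strand of the gene.
Cxcr4: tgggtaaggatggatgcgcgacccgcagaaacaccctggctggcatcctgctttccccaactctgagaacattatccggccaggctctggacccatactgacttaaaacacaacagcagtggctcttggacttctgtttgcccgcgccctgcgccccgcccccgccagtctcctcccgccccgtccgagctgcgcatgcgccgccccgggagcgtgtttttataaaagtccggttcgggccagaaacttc
Cxcr6: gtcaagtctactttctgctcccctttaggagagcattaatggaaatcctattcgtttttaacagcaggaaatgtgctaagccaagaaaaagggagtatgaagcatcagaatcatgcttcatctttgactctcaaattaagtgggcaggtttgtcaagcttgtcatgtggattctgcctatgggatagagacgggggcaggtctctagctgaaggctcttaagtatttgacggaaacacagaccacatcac
Cxcr3: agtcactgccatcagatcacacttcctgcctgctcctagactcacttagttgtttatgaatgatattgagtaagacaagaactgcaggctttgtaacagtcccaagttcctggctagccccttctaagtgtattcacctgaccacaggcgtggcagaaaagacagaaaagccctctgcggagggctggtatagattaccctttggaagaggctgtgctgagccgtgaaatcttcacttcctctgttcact
Cx3cr1: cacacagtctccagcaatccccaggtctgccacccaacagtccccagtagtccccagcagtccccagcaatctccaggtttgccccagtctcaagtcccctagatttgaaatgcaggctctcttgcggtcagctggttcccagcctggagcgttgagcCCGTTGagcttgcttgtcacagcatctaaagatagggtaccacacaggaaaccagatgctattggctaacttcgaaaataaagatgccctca
Ccr6: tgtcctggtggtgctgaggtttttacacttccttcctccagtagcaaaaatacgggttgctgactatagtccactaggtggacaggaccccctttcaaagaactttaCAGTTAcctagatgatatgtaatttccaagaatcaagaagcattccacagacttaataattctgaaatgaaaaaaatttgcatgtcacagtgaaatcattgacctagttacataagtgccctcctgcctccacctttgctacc
The Cxcr4, Cxcr6 and Cxcr3 windows held no match, as did those of Ccr2, S1pr5 and the second Ccr6 start. Cx3cr1 and Ccr6 held 1 match each, on the opposite strand, beginning 92 and 143 bases before the start. Of 32851 promoters of this length in the table, 23.7% held at least 1 match. No match says only that these letters are not in the window, and a match is not a shown binding site.

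Myb itself checked the labels. Its probe set lay between 9.54 and 9.59 on the 4 KY-1 Myb arrays, against 7.92 to 8.04 on the 3 KY-1 GFP arrays. In KY-2 it lay between 9.67 and 9.80 with the Myb vector and at 5.002 and 5.104 with GFP. Of 14 NK cell markers 13 stood above the median of all probe sets (5.37 on the log2 scale) in both Myb groups and in KY-1 GFP, and 14 in KY-2 GFP. A defining marker was dim in each line: Ncr1, the NK receptor NKp46, averaged 5.34 in KY-2 Myb and 5.43 in KY-2 GFP, and Eomes averaged 4.71 in KY-1 Myb and 4.86 in KY-1 GFP. Myeloid markers (7 of 8) and B cell markers (6 of 7) were below that median in every group, and of 7 T cell markers 3 or 4 were above it. Among the KY-1 arrays, Myb replicates 3 and 4 and GFP replicates 1 and 2 differed by a robust SD of 0.043 to 0.047 of their log2 values, against 0.102 to 0.172 for the other pairs within groups. Each of these pairs was averaged and counted as 1 sample, which left 3 Myb and 2 GFP replicates per line. Nothing in the labels gives each replicate its own culture, so the tests rest on a spread between samples that may be technical in part or whole.

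With the Myb vector 3 of the 9 receptor genes changed. Cxcr4 rose in both lines and more in KY-2, Cxcr6 fell in both, and Cxcr3 fell in KY-2. Not every alternative fit called the KY-1 rise of Cxcr4, the difference between its rises or either fall of Cxcr6, as given with each gene. The KY-2 rise of Cxcr4 was called in all 20 alternative settings. In KY-1 1 receptor gene rose and 1 fell (limma, Benjamini-Hochberg adjusted over all genes, p under 0.05), where 1.22% of all genes were called, 0.612% in each direction. In KY-2 1 rose and 2 fell, where 2.83% of all genes were called, 1.28% higher and 1.55% lower. The median log2 difference of the 9 genes was -0.07 in KY-1 and 0.20 in KY-2, beside -0.00 and 0.01 over all genes. In bulk RNA of this kind, fewer cells that express a gene and less transcript per cell cannot be told apart.

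Cxcr4 encodes the receptor for CXCL12. Its level on the KY-2 Myb arrays was 8.48, 8.47 and 8.30 on the log2 scale, against 6.85 and 6.71 on the KY-2 GFP arrays. On the KY-1 Myb arrays it was 6.49, 6.28, 6.49 and 6.48, against 5.69, 5.70 and 6.02 on the KY-1 GFP arrays. Neither line had an overlap between vectors, and all 12 arrays lay above their own array median. Non-overlap in either direction was found for 31.0% of all genes in KY-2 and for 19.0% in KY-1.

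In KY-2 Cxcr4 rose by 1.64 ± 0.12 log2 (SE), or 3.11-fold (limma adjusted p = 1.37e-05, n = 3 Myb and 2 GFP replicates). In KY-1 it rose by 0.56 ± 0.12, or 1.48-fold (limma adjusted p = 0.0435). The KY-1 call is near the threshold: it was lost with KY-1 arrays alone (adjusted p = 0.126) and on leaving out any 1 of the 10 replicates (adjusted p up to 0.347), with differences between 0.40 and 0.72. The KY-2 call was kept in all 20 alternative settings. The effect was larger in KY-2 by 1.07 ± 0.16 log2 (limma adjusted p = 0.0093), a contrast in which 0.843% of all genes were called, 0.461% higher and 0.381% lower. That call was lost without KY-2 GFP replicate 2 (adjusted p = 0.0538). From lowest to highest, the group means ran KY-1 GFP (5.86), KY-1 Myb (6.42), KY-2 GFP (6.78) and KY-2 Myb (8.42), and the arrays of neighbouring groups in this order did not overlap.

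Cxcr6 encodes the receptor for CXCL16, a marker of liver-resident and activated NK cells. Its level on the KY-1 Myb arrays was 10.20, 10.13, 10.22 and 10.24, against 10.82, 10.78 and 10.68 on the KY-1 GFP arrays. On the KY-2 Myb arrays it was 7.83, 7.93 and 7.99, against 8.37 and 8.35 on the KY-2 GFP arrays. All Myb arrays thus lay below the GFP arrays of their line. Cxcr6 fell by 0.56 ± 0.08 log2 in KY-1 (1.47-fold, limma adjusted p = 0.00779) and by 0.45 ± 0.08 in KY-2 (1.36-fold, limma adjusted p = 0.0134).

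The KY-1 fall of Cxcr6 lost its call without the averaged KY-1 GFP replicates 1 and 2 (adjusted p = 0.104). The KY-2 fall lost it without KY-2 GFP replicate 1 (0.139), without KY-2 GFP replicate 2 (0.0916) and with KY-2 arrays alone (0.0535). The difference between the effects was 0.11 log2, with a 95% confidence interval from -0.15 to 0.36, and was not called.

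Cxcr3 encodes the receptor for the interferon-induced chemokines CXCL9, CXCL10 and CXCL11. Its level on the KY-2 Myb arrays was 7.13, 6.91 and 6.73, against 7.86 and 7.72 on the KY-2 GFP arrays. On the KY-1 Myb arrays it was 8.51, 8.49, 8.48 and 8.49, against 8.59, 8.64 and 8.46 on the KY-1 GFP arrays. The vectors were apart in KY-2 and overlapped in KY-1.

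In KY-2 Cxcr3 fell by 0.87 ± 0.11 log2, or 1.82-fold (limma adjusted p = 0.00141). In KY-1 the difference was -0.04 (95% confidence interval -0.29 to 0.20, adjusted p = 0.944). The effect differed between lines by -0.82 ± 0.16 log2 (limma adjusted p = 0.0383). That call was lost in 9 of the 10 fits that left out 1 replicate, with adjusted p up to 0.204. The exception was the fit without KY-2 Myb replicate 1, and the difference ran from -0.93 to -0.73 over all settings. The KY-2 fall itself was called in all 20 settings.

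**Figure D1:**
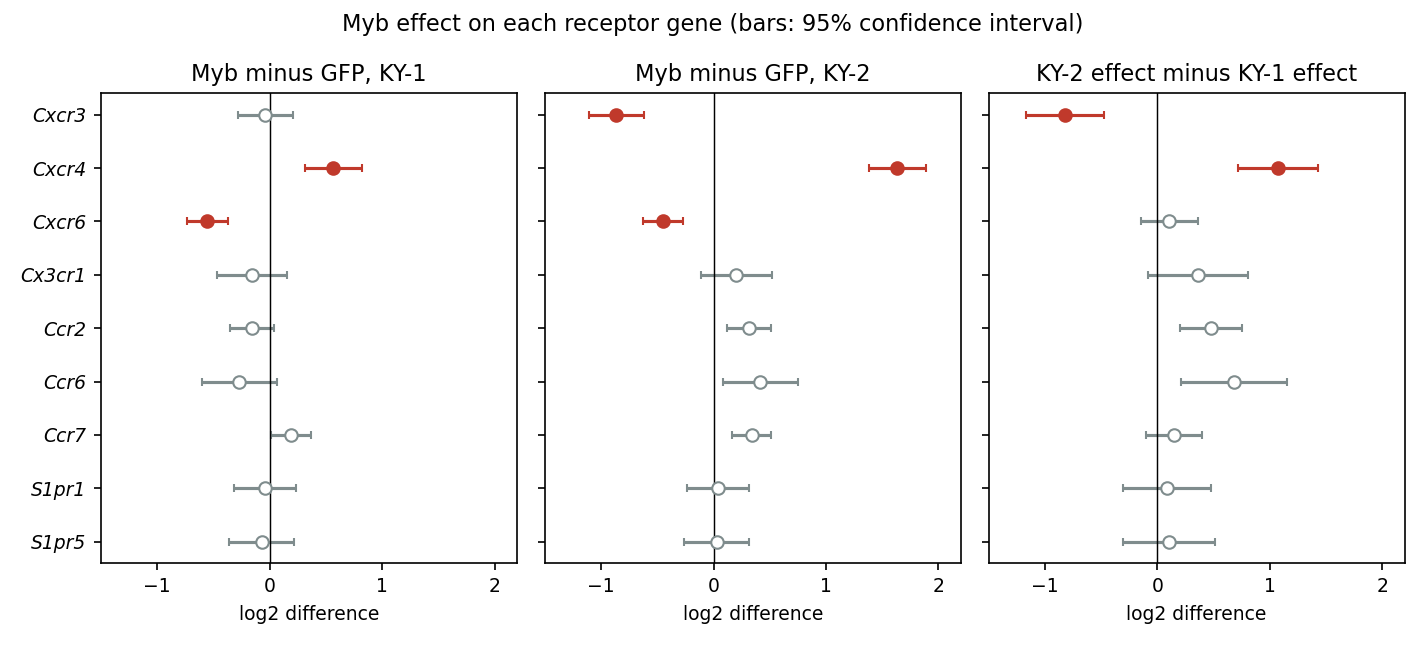
Log2 difference of each receptor gene, Myb minus GFP, in KY-1 (left) and KY-2 (middle), and the KY-2 effect minus the KY-1 effect (right). Points are limma estimates, bars 95% confidence intervals, and filled points have an adjusted p under 0.05. Cxcr4 and Cxcr6 are filled in both lines, Cxcr3 in KY-2, and Cxcr4 and Cxcr3 in the comparison of effects.

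Of the CC receptors, none was called by limma with the Myb vector in either line, where the unadjusted p was under 0.05 for Ccr7 in KY-1 and for Ccr2, Ccr6 and Ccr7 in KY-2. Ccr2, the receptor for CCL2, was at 10.55, 10.53 and 10.53 on the KY-2 Myb arrays and at 10.25 and 10.18 on the KY-2 GFP arrays. The Myb arrays lay above the GFP arrays, with a difference of 0.32 ± 0.09 log2 that missed the threshold (limma adjusted p = 0.103). It was called with all 12 arrays as separate replicates (0.043), among brighter genes (0.0373) and with trended moderation (0.00572). The fit of 12 separate arrays counts the nearly alike KY-1 arrays as independent in the spread that all groups share. In KY-1 the difference was -0.16 (95% confidence interval -0.35 to 0.04), from values of 10.28 to 10.54 with Myb and 10.53 to 10.61 with GFP, which overlapped. The difference between these effects, 0.47 ± 0.13 log2, was not called (limma adjusted p = 0.145), but was with 12 separate arrays (0.0299) and with trended moderation (0.00858).

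Ccr7 encodes the lymph node homing receptor for CCL19 and CCL21. It was at 6.25, 6.08 and 6.18 on the KY-2 Myb arrays and at 5.83 and 5.83 on the KY-2 GFP arrays, without overlap. The difference of 0.34 ± 0.08 log2 had a limma adjusted p of 0.052, and 4 of 20 alternative settings called it (lowest adjusted p = 0.015). In KY-1 it was at 5.81 to 5.98 with Myb and 5.70 to 5.75 with GFP, a difference of 0.19 ± 0.08 (adjusted p = 0.414).

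Ccr6, the receptor for CCL20, averaged 5.15 ± 0.32 in KY-2 Myb (SD, n = 3) and 4.74 ± 0.06 in KY-2 GFP (SD, n = 2), both below the 5.37 median. In KY-1 it averaged 5.84 ± 0.08 with Myb (SD, n = 3) and 6.11 ± 0.12 with GFP (SD, n = 2). The arrays were apart in both lines and in opposite directions, at 0.41 ± 0.15 log2 in KY-2 (adjusted p = 0.246) and -0.27 ± 0.15 in KY-1 (adjusted p = 0.568). The difference between these effects, 0.69 ± 0.21, was not called either (adjusted p = 0.24).

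Cx3cr1 encodes the fractalkine receptor of mature NK cells. It was at the edge of the array medians, 0.21 below to 0.46 above them, on 7 of 12 arrays above. It averaged 5.36 ± 0.12 in KY-1 Myb and 5.52 ± 0.19 in KY-1 GFP, and 5.56 ± 0.26 in KY-2 Myb and 5.36 ± 0.08 in KY-2 GFP. These groups overlapped in each line, and neither difference was called (adjusted p = 0.771 in KY-1 and 0.639 in KY-2).

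The S1P receptor genes S1pr1 and S1pr5 were not called with the Myb vector in either line, nor was their unadjusted p under 0.05. S1pr5 was 0.22 to 0.64 log2 above the array medians on all 12 arrays. It ranged from 5.54 to 6.04 in KY-1 Myb and from 5.79 to 6.04 in KY-1 GFP, and from 5.72 to 5.90 in KY-2 Myb against 5.77 and 5.82 in KY-2 GFP. Its Myb difference was -0.07 in KY-1 (95% confidence interval -0.36 to 0.22) and 0.03 in KY-2 (-0.26 to 0.32). S1pr1, the lymphocyte egress receptor, was 0.81 to 1.29 below the median on every array. Its differences were -0.04 in KY-1 (-0.32 to 0.23) and 0.04 in KY-2 (-0.23 to 0.32). The table holds no detection calls, which limits what these S1pr1 levels can show.

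The lines themselves differed in more of these genes than the vectors did, as they did over all genes. Between the vectors, 1.22% of all genes were called in KY-1 and 2.83% in KY-2. With the Myb vector, 2 receptor genes were higher and 3 lower in KY-2 than in KY-1, where 31.6% of all genes were called, 14.7% higher and 16.9% lower. With GFP, 1 was higher and 4 lower, where 28.9% of all genes were called, 13.6% higher and 15.2% lower. These 2 comparisons share no arrays with each other, but each shares arrays with the Myb comparisons.

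Cxcr6 was lower in KY-2, at a difference of -2.27 ± 0.07 log2 with Myb (4.83-fold, limma adjusted p = 1.56e-09) and -2.38 ± 0.09 with GFP (5.21-fold, 7.71e-09). Cxcr3 was lower in KY-2 at -1.57 log2 with Myb and -0.75 with GFP, and Ccr6 at -0.69 with Myb and -1.37 with GFP. Cxcr4 was higher in KY-2 by 1.999 log2 with Myb (3.996-fold) and by 0.93 with GFP (1.90-fold). The limma adjusted p-values of Cxcr3, Ccr6 and Cxcr4 were at most 0.00219, and all 20 settings kept these calls.

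Ccr2 was lower in KY-2 with GFP (-0.35 ± 0.10, limma adjusted p = 0.0196), but with the Myb vector its difference was 0.13 ± 0.08 and not called (adjusted p = 0.272). The GFP call was lost in 5 of 20 settings, median centring of the arrays (-0.28, adjusted p = 0.0898) and leaving out any of the KY-1 or KY-2 GFP replicates. Ccr7 was higher in KY-2 with Myb by 0.24 ± 0.07 (limma adjusted p = 0.0223), a call lost in 4 of 20 settings (adjusted p up to 0.0829), and by 0.10 with GFP, not called. Cx3cr1, S1pr1 and S1pr5 were not called between lines with either vector.

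**Figure D2:**
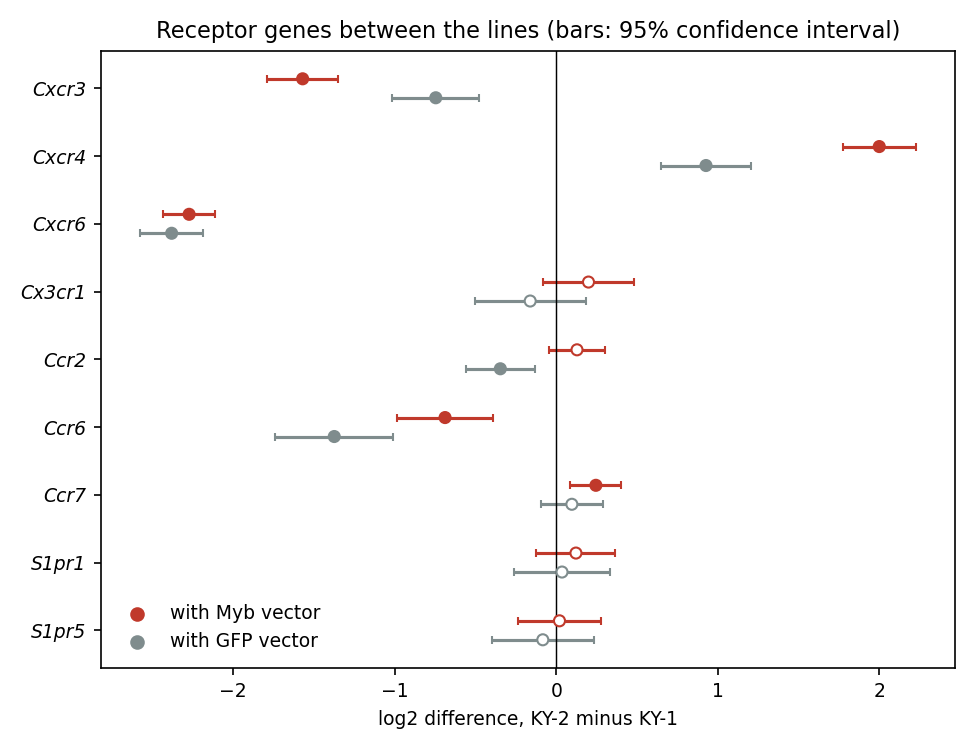
Log2 difference of each receptor gene between the lines, KY-2 minus KY-1, with the Myb vector (red, upper) and the GFP vector (grey, lower). Bars are 95% confidence intervals and filled points have an adjusted p under 0.05. Cxcr4 lies to the right of 0 with both vectors, and Cxcr6, Cxcr3 and Ccr6 to the left.

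Cxcr6 and Ccr2 stand in one run of chemokine receptor genes on chromosome 9, where the gene table gives the order Ccr9, Cxcr6, Xcr1, Ccr1, Ccr1l1, Ccr3 and Ccr2, with Fyco1 between the first pair. These 7 genes each had a probe set of their own. Only Cxcr6 and Ccr2 had a group mean above the probe set median; the other 5 stayed below it in every group, from a highest group mean of 3.26 for Ccr1 to 4.504 for Ccr3. Only Cxcr6 was called among the 7 with the Myb vector, in both lines.

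Beyond the 9 genes, 16 of 17 other chemokine receptors had a probe set of their own, and none was called with the Myb vector in either line by limma (unadjusted p under 0.05 for 1 in KY-1 and 0 in KY-2). Most were dim, with 14 of 16 below the probe set median in every group. Over these 16 the median log2 difference was -0.02 in KY-1 and -0.05 in KY-2. With the Myb vector 1.22% of all genes were called in KY-1 and 2.83% in KY-2. Of 11 other genes of S1P reception and handling, 1 was called: S1pr3, another S1P receptor, rose in KY-1. It was at 5.46, 5.06, 5.31 and 5.32 on KY-1 Myb arrays and at 4.73, 4.62 and 4.13 on KY-1 GFP arrays, a rise of 0.88 ± 0.16 log2 (limma adjusted p = 0.0269). Most of these values lie below the probe set median, and the call was lost in 4 of 19 settings (adjusted p up to 0.229).

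Beside 1.22% of all genes called in KY-1 and 2.83% in KY-2, the ligands of the receptors gave few calls. Of 11 ligands of the 9 receptors, 1 fell in KY-1 and 0 were called in KY-2 by limma, where 0 had an unadjusted p under 0.05. The one that fell was Ccl20, the ligand of CCR6, at 5.86, 6.12, 5.97 and 6.01 on KY-1 Myb arrays and at 7.31, 7.19 and 7.11 on KY-1 GFP arrays. It fell by 1.19 ± 0.10 log2 (limma adjusted p = 0.000156) in KY-1, and in KY-2 the difference was 0.12 (adjusted p = 0.714). The effects differed by 1.30 ± 0.14 (limma adjusted p = 0.000897), with the KY-2 levels under the probe set median with both vectors.

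Of 23 tested genes that carry or end the receptor signal, 1 rose and 4 fell in KY-1, and 1 rose and 2 fell in KY-2. The share called among all genes was 1.22% in KY-1 and 2.83% in KY-2. Of the 23, the unadjusted limma p was under 0.05 for 9 in KY-1 and 10 in KY-2. Their median log2 difference was -0.04 in KY-1 and -0.09 in KY-2. Grk5 and Gng2 fell in both lines. Grk5, a kinase that desensitises G protein-coupled receptors, was at 5.48, 5.29, 5.58 and 5.69 on KY-1 Myb arrays against 6.74, 6.73 and 6.55 on KY-1 GFP arrays. On KY-2 arrays it was at 7.52, 7.63 and 7.79 with Myb against 8.48 and 8.69 with GFP. The vectors did not overlap in either line. Grk5 fell by 1.17 ± 0.12 log2 in KY-1 (2.25-fold, limma adjusted p = 0.000863) and by 0.94 ± 0.12 in KY-2 (1.92-fold, 0.00165).

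Gng2, a gamma subunit of the G proteins, fell by 0.74 ± 0.08 log2 in KY-1 (1.67-fold, limma adjusted p = 0.000863) and by 0.63 ± 0.08 in KY-2 (1.54-fold, 0.0011). It was at 6.78 to 6.91 with Myb and 7.55 to 7.57 with GFP in KY-1, and at 7.78 to 7.91 with Myb and 8.46 to 8.52 with GFP in KY-2. The falls of Grk5 and Gng2 were called in all 20 settings in each line. Pik3r5, a regulatory subunit of PI3-kinase gamma, rose in KY-1 by 0.52 ± 0.09 (limma adjusted p = 0.0239), and Grk3, another receptor kinase, rose in KY-2 by 0.57 ± 0.12 (0.0237), from levels below the median. Rgs18, a regulator of G protein signalling, fell in KY-1 by 0.80 ± 0.16 and Arrb1, beta-arrestin 1, by 0.44 ± 0.09. The last 4 calls were lost in 4 to 13 of the 19 or 20 settings. In KY-2 the differences were 0.05 for Pik3r5, -0.33 for Rgs18 and -0.34 for Arrb1, and in KY-1 0.065 for Grk3, none of them called. The difference of the Myb effect between lines was called for 0 of the 23 genes, so these values do not set the lines apart. Arrb1 was named after its value was seen. So was Rgs18 when genes are ranked by adjusted p, or Grk3 when they are ranked by unadjusted p.

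**Figure D3:**
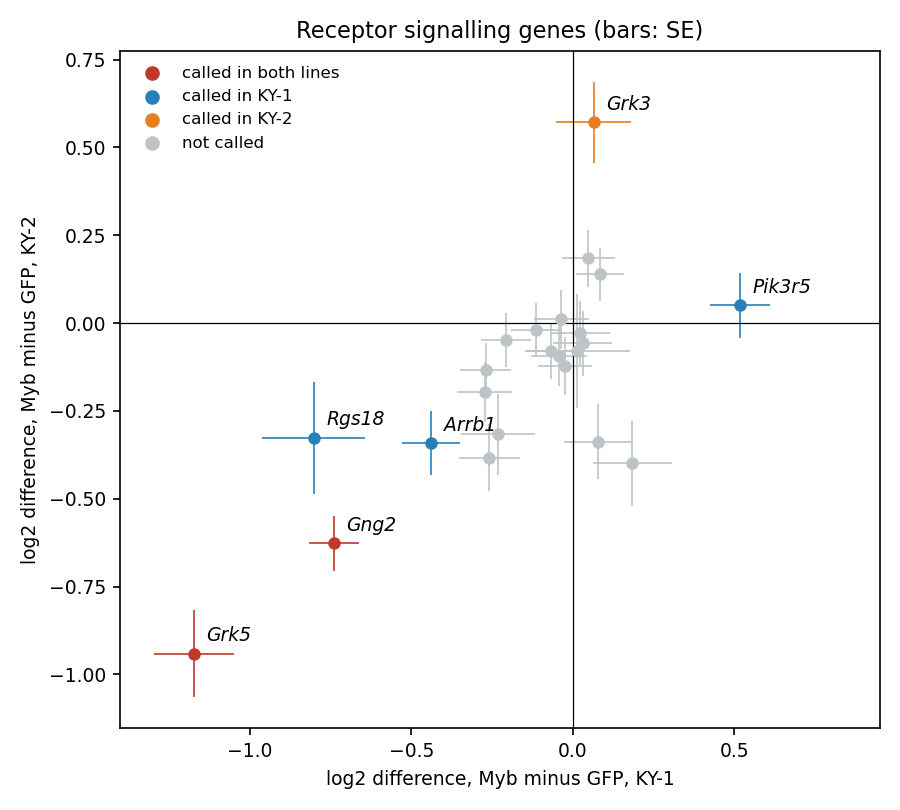
Log2 differences, Myb minus GFP, of 23 genes of receptor signalling and desensitisation in KY-1 (horizontal) and KY-2 (vertical), with SE bars. Colours show in which line the adjusted p was under 0.05. Grk5 and Gng2, at the lower left, are called in both lines.

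Among 11 tested factors and surface proteins known to act on homing receptors, 1 fell in KY-1 and 0 were called in KY-2 by limma, where 6 had an unadjusted p under 0.05. Among all genes 1.22% were called in KY-1 and 2.83% in KY-2. Itgal, the LFA-1 alpha chain, fell in KY-1 by 0.42 ± 0.08 log2 (limma adjusted p = 0.035), a call lost in 11 of 20 settings. Klf2, which drives S1pr1 in T cells, had differences of 0.19 ± 0.09 in KY-1 and 0.27 ± 0.09 in KY-2 (adjusted p = 0.515 and 0.221). Cd69, whose protein holds S1PR1 inside the cell, was at 0.09 and -0.08, and Tbx21, the T-bet gene, at -0.24 and -0.39. These were not called. Klf2, Cd69 and Tbx21 were named after their values were seen.

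Of 14 NK cell marker genes 2 fell in KY-1 and 3 in KY-2, and the others were not called. For these and the marker lists below, the share called among all genes was 1.22% in KY-1 and 2.83% in KY-2. The median log2 difference over all 14 was -0.12 in KY-1 and -0.16 in KY-2. Their mean log2 level per array was 9.77 to 9.84 in KY-1 Myb and 10.01 to 10.09 in KY-1 GFP, and 9.74 to 9.79 in KY-2 Myb and 9.93 to 10.06 in KY-2 GFP. The KY-1 calls had a log2 difference of -1.96 for Ncr1 and -0.58 for Klrb1c, the receptor NK1.1. The KY-2 calls included Prf1, the perforin gene, which fell by 0.82, and Klrd1, the CD94 gene, which fell by 0.36. The Klrd1 call was lost in 11 of 20 settings, among them KY-2 arrays alone and 9 of the 10 fits without 1 replicate (adjusted p up to 0.363). Of the mast cell and basophil markers 2 of 8 rose in KY-1, Mcpt8 by 1.76 and Cpa3 by 1.10, with a list median of 0.004. The Cpa3 call was lost in 4 of 20 settings, without KY-1 GFP replicates 1 and 2, KY-1 GFP replicate 3, KY-1 Myb replicate 1 or KY-1 Myb replicates 3 and 4 (adjusted p from 0.115 to 0.226). The high-affinity IgE receptor gene Fcer1a averaged 2.99 in KY-1 Myb and 2.88 in KY-1 GFP, named after its value was seen. The mean log2 level of these 8 markers was 5.10 to 5.26 on KY-1 Myb arrays and 4.79 to 4.89 on KY-1 GFP arrays. Of 7 T cell markers 1 fell in KY-2, Cd3d, by 0.73, a call lost without KY-2 GFP replicate 1 (-0.64, adjusted p = 0.0793). The part of these shifts in the receptor values was not tested.

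The genes most alike in pattern were taken from 1396 genes whose group means spanned at least 1 log2 unit, by Pearson correlation over the 10 replicates. The line differences weigh heavily in such correlations, which are given as a description. For Cxcr4 they were Ifitm1 (r = 0.99), an interferon-inducible membrane protein, Nrros (r = 0.99) and Smpdl3b (r = 0.98). For Cxcr6 they were Cd52 (r = 0.998), a small glycoprotein of lymphocytes, Zap70 (r = 0.99), a kinase of antigen and NK receptor signalling, and Ripor2 (r = 0.99). For Cxcr3 they were Glcci1, Gzmd, a granzyme gene, and Tmem273 (r = 0.98 each).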

How the data were processed

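The authors deposited log2 expression values per probe set from 12 single-colour Affymetrix arrays of total RNA; Partek and RMA, a method of background correction, normalization and summary, are named in the submitters' processing notes. The sources used here give no versions, options, scan dates or other batches. Of 35556 probe sets, 21789 had 1 gene symbol, 1621 several, and 12146 were unlisted. Entrez identifiers were matched to symbols in a RefSeq table for GRCm38.p6 (0 changed, 91 not found there). The brightest probe set per gene gave 19938 genes. Values ran from 1.49 to 13.96 and array medians from 5.31 to 5.42; the number of arrays limits the precision.

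Array pairs whose robust SD over 10624 probe sets with a mean above 7 was below 0.5 times the median of all pairs within groups were averaged. Tests used limma 3.58.1 in R 4.3.3 on 1 model of the 4 group means, with Benjamini-Hochberg adjustment over all genes (threshold 0.05). The fit was also run on simulated data of independent noise with changes added in 1 group. Those data held no line differences or shared cultures, so they cannot show how the tests behave with them. Errors are SEs of the model for differences and SDs over replicates for levels. The labels do not say that replicate numbers pair samples across groups, and the model did not pair them. Deviations of same-numbered arrays from their group means correlated between -0.37 and 0.23 over 15 pairs. Those of the 38 other pairs across groups correlated between -0.36 and 0.39. In groups of 2 to 4 arrays such deviations mirror each other. These values therefore cannot show whether samples were paired or shared a batch. The members, lists and tests were chosen with earlier results of these data known. Named genes were Myb, the 9 members, up to 4 called genes per list and the 3 genes most alike to each called member.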

Additional observations from a re-analysis of the deposited data

Results flagged for a closer look

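The Myb effect on 2 receptor genes differed between the lines by the test of the difference itself, though neither call held in every fit without 1 replicate. For Cxcr4 the KY-2 effect exceeded the KY-1 effect by 1.07 log2 (limma adjusted p = 0.0093, and 0.0538 without KY-2 GFP replicate 2), with higher levels on Myb than on GFP arrays in each line. For Cxcr3 the KY-2 effect was lower than the KY-1 effect by -0.82 log2 (limma adjusted p = 0.0383, lost in 9 of 10 fits without 1 replicate, up to 0.204), with all KY-2 Myb arrays below the KY-2 GFP arrays and overlapping KY-1 groups. Myb itself, which differed between the GFP groups, rose more in KY-2 by 3.11 log2, and its part in either difference was not tested.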

How the results depend on the processing

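Each comparison was refitted under up to 20 of 23 alternatives, and changed calls of the receptor genes are given in the account of each gene. The number of genes called in KY-1, 244 in the reported fit, was 823 with all 12 arrays as separate replicates, 423 among genes above the probe set median, 484 with trended moderation, 106 with KY-1 arrays alone, 140 without the averaged KY-1 Myb replicates 3 and 4, and 72 to 227 over all fits without 1 replicate. In KY-2 the count of 565 was 888 with trended moderation, 346 with KY-2 arrays alone and 182 to 556 on leaving out 1 replicate. For the difference between lines the count of 168 was 427 with 12 separate arrays, 337 among brighter genes, 362 with trended moderation and 88 to 142 on leaving out 1 replicate. Median centring turned the KY-1 calls to 139 higher and 83 lower, against 122 and 122, the difference between lines to 78 and 108, against 92 and 76, and the lines with GFP to 3081 and 2218, against 2718 and 3039. With the replicate number as a block on all 12 arrays, 350 genes were called in KY-1 and 443 in KY-2; Cxcr4 was at 0.62 and 1.61 log2, Cxcr6 at -0.58 and -0.45 and Cxcr3 at -0.07 and -0.81, and no receptor gene changed its call. Grk3 (adjusted p = 0.0614) and Klrd1 (0.066) lost their KY-2 calls under it. That fit counted the nearly alike KY-1 arrays as separate samples in different blocks. Unchanged calls under it therefore cannot show whether pairing or a batch matters.

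Signs turned only for differences that were not called. On leaving out 1 replicate, the KY-1 Myb difference ran from -0.12 to 0.0364 for Cxcr3, -0.13 to 0.0733 for S1pr1, -0.19 to 0.0609 for S1pr5 (0.0194 without the averaged KY-1 GFP replicates 1 and 2) and -0.0817 to 0.0288 for Klrd1 (0.0083 without KY-1 Myb replicate 2). In KY-2 it ran from -0.0359 to 0.12 for S1pr1, -0.0067 to 0.0854 for S1pr5, -0.0642 to 0.0791 for S1pr3 and -0.45 to 0.26 for Ncr1. The difference between effects ran from -0.0311 to 0.17 for S1pr1 and -0.0305 to 0.22 for S1pr5. Between the lines, S1pr1 ran from -0.0428 to 0.11 and S1pr5 from -0.18 to 0.0084 with GFP, and S1pr5 from -0.11 to 0.13 with Myb. Median centring gave 0.0023 for Cxcr3 and 0.0171 for Klrd1 in KY-1, and the block gave 0.0818 for S1pr3 in KY-2. The causes were not tested. Where a fit left 1 GFP replicate, that sample was taken to vary like the other groups. With 2 GFP replicates per line and no detection calls, small changes in dim genes such as S1pr1 cannot be seen.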

Other observations

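With either vector the lines also differed in genes around these receptors, named here after their values were seen. Sgpp1, an S1P phosphatase, was higher in KY-2 by 2.05 ± 0.13 log2 with Myb (limma adjusted p = 4.1e-07) and by 2.34 ± 0.16 with GFP (9.9e-07). The CXCR3 ligand genes Cxcl9 and Cxcl10 were lower in KY-2, Cxcl9 at -1.65 ± 0.19 log2 with Myb and -2.03 ± 0.24 with GFP, and Cxcl10 at -0.73 ± 0.08 with Myb and -0.98 ± 0.10 with GFP (limma adjusted p at most 5.92e-05). Grk5 was higher in KY-2 by 2.18 ± 0.11 log2 with Myb and by 1.95 ± 0.14 with GFP.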
